A study of Mus musculus with 50 samples.

Results

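The CC chemokines are small secreted proteins in which the first conserved cysteines are adjacent. They bind G-protein-coupled receptors (Ccr) on leukocytes and direct these cells into tissues, and their genes are induced in epithelial and stromal cells by inflammatory signalling, among others through NF-kappaB, AP-1 and interferon-regulated factors. In the gut, Ccl20 and Ccl25 are known as epithelial attractants of cells bearing Ccr6 and Ccr9. The 7 CC chemokine genes described here are Ccl2, Ccl7 and Ccl8 (monocyte chemoattractant proteins), Ccl5 (RANTES), Ccl9 (a mouse chemokine that acts through Ccr1), Ccl20 and Ccl25. They were chosen by name among 18193 gene symbols of the array annotation, as every probe set whose single symbol is one of these genes, which gave 9 probe sets, with 2 each for Ccl9 and Ccl25.

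The arrays measured polysomal RNA, the mRNA carried by several ribosomes, so that a level depends on transcript abundance and ribosome loading together. There were 50 arrays, 10 for each of 5 cell populations. YAMC cells are a young adult mouse colon line from the H-2Kb/tsA58 mouse, which carries a temperature-sensitive large T antigen under an interferon gamma-inducible promoter. Polyclonal populations were made from them by retroviral infection: bleo/Neo with empty vectors, mp53 with p53175H and the Neo vector, Ras with RasV12 and the Bleo vector, and mp53/Ras with both oncogenes. All cells, YAMC included, were kept for 48 h at 39 °C without interferon gamma, which turns large T off, and then for 24 h in 0% serum. Each population exists once, and nothing in the labels says that the 10 arrays of a population came from separate cultures, so p-values measure the spread between these arrays, which may be technical. In bulk RNA of this kind, fewer expressing cells and less RNA per cell cannot be told apart.

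Of the 50 arrays, 46 lay nearest to their own population over the 12883 genes tested. The array labelled Ras 10 lay nearest to mp53, mp53 10 nearest to Ras, mp53 8 nearest to YAMC and YAMC 2 nearest to mp53, and results that turn on these 4 arrays are given with and without them. Ras 10 and mp53 10 thus lay each nearest to the population of the other, the pattern that exchanged labels would give. Whether they were exchanged was not tested, and both are used as labelled. Of 10 colon epithelium markers, 5 lay above the median of the table (6.44) in every population. The keratin genes Krt8 (group means from 11.75 to 12.94 on the log2 scale) and Krt18 (10.54 to 12.67) were brightest, and Krt19 (8.44 to 11.54), Epcam (8.07 to 8.41) and Elf3 were also above it. The E-cadherin gene Cdh1 (3.95 to 4.31), Vil1 and Cdx1 lay below it in every population. Of 8 fibroblast markers, 5 lay above that median in every population, Col1a1 at 12.40 to 13.29. Of 12 leukocyte markers, 6 lay above it in each population except mp53/Ras, with 5. Those above it included Cd14 and Cd68, and the pan-leukocyte gene Ptprc (5.39 to 5.54) lay below it in all. Of 5 endothelial markers, 1 or 2 lay above it, and Pecam1 and Cdh5 did not in any population. The summed leukocyte marker intensity overlapped between all populations, from 1525 to 3047 in YAMC, 1585 to 3700 in bleo/Neo, 1302 to 2376 for mp53 cells, 1464 to 2814 for Ras cells and 1513 to 1921 for mp53/Ras cells. Single leukocyte markers did differ between populations, as given with Ccl5 below.

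Where the RefSeq table (GRCm38.p6) holds a promoter of a member, the 250 bases before its start site were searched on both strands for 3 patterns. These were TGANTCA, a loose form of the AP-1 motif that allows any middle base, and the TATA box TATAAA. The third was GGG, any 5 bases and CC, a loose form of the NF-kappaB motif. Windows were found for 4 of the 7 genes, Ccl8, Ccl9, Ccl20 and Ccl25 (2 start sites). In the sequences below, which show the gene with the widest differences and one without a called difference, capitals mark the matches. Ccl9 lies on chr11:83578637-83578886 (minus strand) and Ccl20 on chr1:83116516-83116765 (plus strand).
Ccl9: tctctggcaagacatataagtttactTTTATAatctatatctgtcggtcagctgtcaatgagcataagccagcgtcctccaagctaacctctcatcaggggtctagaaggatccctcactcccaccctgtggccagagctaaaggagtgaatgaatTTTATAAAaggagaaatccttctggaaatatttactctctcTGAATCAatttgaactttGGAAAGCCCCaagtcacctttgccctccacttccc
Ccl20: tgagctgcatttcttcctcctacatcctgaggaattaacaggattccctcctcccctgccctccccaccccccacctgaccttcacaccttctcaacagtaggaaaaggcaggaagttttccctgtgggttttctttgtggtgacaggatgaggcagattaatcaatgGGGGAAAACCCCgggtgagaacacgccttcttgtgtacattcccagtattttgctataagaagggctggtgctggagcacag
The Ccl9 window held TGAATCA at position −53 from the start site, GGAAAGCCCC at −35, the loose NF-kappaB motif on the opposite strand, and 3 TATA box matches, 2 of which overlap. The Ccl20 window held 3 overlapping NF-kappaB matches, at positions −82, −81 and −80. Ccl8 and the downstream start site of Ccl25 each held 1 TATA box. Of all 32851 windows of this length in the table, 6.75% held the loose AP-1 motif, 45.8% the loose NF-kappaB motif and 12.4% the TATA box.

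The differences that follow are log2 values, each given ± its standard error from a limma fit over all 50 arrays, n = 10 arrays per population, and a gene is said to rise or fall where its Benjamini-Hochberg adjusted p over the 12883 genes was under 0.05. All 7 members were among the genes tested. Ccl9 met the brightness filter on 20 arrays only, 10 of mp53/Ras, 9 of Ras and 1 of mp53, so it was tested because of the populations in which it is high. Without any filter all calls of the 7 genes were the same.

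In Ras cells, 5 of the 7 genes rose against bleo/Neo and none fell. Of all 12883 genes, 41.1% passed there, 19.7% as rises. With array weights Ccl20 and Ccl25 also passed in that comparison, as falls, where 6646 of all genes passed. In mp53/Ras, 3 rose against bleo/Neo (Ccl2, Ccl7 and Ccl9) and none fell, where 54.6% of all genes passed and 26.7% rose. In mp53, 1 rose (Ccl7) and 1 fell (Ccl25), where 35.4% of all genes passed, 16.5% as rises and 18.9% as falls. With YAMC as the control, 6 rose in Ras (42.7% of all genes passed, 21.5% as rises), 4 in mp53/Ras (57.8% and 29.1%) and 3 in mp53 (22.9% and 11.1%), and none fell. The vector population bleo/Neo itself had 3 members higher and 1 lower than YAMC, where 37.4% of all genes passed, 20% higher and 17.4% lower. Compared directly, Ras exceeded mp53 in 4 members (32.9% of all genes passed, 16.7% as rises) and mp53/Ras exceeded mp53 in 3 (47.1% and 23.3%). mp53/Ras differed from Ras in 2 members (21.6% of all genes), higher for Ccl9 (9.12% were higher) and lower for Ccl7 (12.5% were lower). Markers of cell type moved in the same comparisons, and their part in the chemokine differences was not tested. All 5 fibroblast markers tested fell in Ras and in mp53/Ras, against YAMC and against mp53, Col1a1 with −0.89 ± 0.20 in Ras against YAMC. Against bleo/Neo, 2 rose and 2 fell in each, and Col1a2 was at 8.68 in bleo/Neo against 13.30 in YAMC. The epithelial keratin genes rose with Ras, Krt8 by 0.59 ± 0.10 and Krt18 by 0.99 ± 0.14 against bleo/Neo, while Krt19 fell there (−1.27 ± 0.24). The share of members called in mp53/Ras against either control was near that of all genes. The median difference of the 7 genes in Ras was 0.73 against bleo/Neo and 0.76 against YAMC, where the medians of all genes were −0.01 and 0.01. The 4 other CC chemokines tested had medians of −0.05 and −0.10 there. The 7 genes were chosen with earlier results of these data known. These comparisons share their control arrays and are not independent of each other.

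Ccl9 was the member with the widest range. Its level was low in YAMC (lowest 5.10, median 5.35 and highest 5.56), bleo/Neo (5.43, 5.70 and 6.21) and mp53 (5.30, 5.94 and 6.94). It was higher in Ras (6.42, 7.60 and 8.27) and highest in mp53/Ras (8.05, 8.36 and 8.58). All 10 mp53/Ras arrays lay above every YAMC, bleo/Neo and mp53 array, and all 10 Ras arrays lay above every YAMC and bleo/Neo array, while Ras and mp53 overlapped through the arrays labelled Ras 10 (6.42) and mp53 10 (6.94). Ranges did not overlap for 16.1%, 17.3% and 11% of all genes in mp53/Ras against YAMC, bleo/Neo and mp53, and for 4.18% and 6.81% in Ras against YAMC and bleo/Neo. All YAMC and bleo/Neo arrays and 9 of the mp53 arrays lay below the median of the table. RMA values carry no detection call, so levels this low may be background, differences from them may be understated, and the order among these populations is uncertain.

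Against bleo/Neo, Ccl9 rose by 1.78 ± 0.14 in Ras (adjusted p = 1.60e-15) and by 2.55 ± 0.14 in mp53/Ras (adjusted p = 1.18e-21). In mp53 the difference was 0.27 ± 0.14 (adjusted p = 0.123), and without the 4 arrays nearest another population it passed at 0.25 (adjusted p = 0.0388). With YAMC as the control the rises were 0.70 ± 0.14 in mp53 (adjusted p = 1.51e-04), 2.21 ± 0.14 in Ras and 2.98 ± 0.14 in mp53/Ras, and bleo/Neo itself was 0.43 ± 0.14 higher (adjusted p = 0.0115; with an offset of 50 before the logarithm 0.21, adjusted p = 0.0662). Between the populations above the median of the table on 10 arrays (mp53/Ras) and on 9 (Ras), mp53/Ras exceeded Ras by 0.77 ± 0.14 (adjusted p = 3.00e-05). Without the 4 arrays nearest another population the means were 8.31 in mp53/Ras and 7.66 in Ras.

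The second Ccl9 probe set, 1448898_at, followed the first (Pearson r = 0.96 over 50 arrays, which include the differences between populations). It was fitted with every probe set of the array, of which 38.2% passed in Ras and 46.2% in mp53/Ras against bleo/Neo, and 25.1% in mp53/Ras against Ras. Its group means were 5.02 in YAMC, 5.20 for the vector cells, 5.51 with mp53, 6.38 with Ras and 7.12 with both, and no YAMC, bleo/Neo or mp53 array reached the median of the table. Only 4 of 10 Ras arrays lay above that median, and all 10 of mp53/Ras did. It rose by 1.18 ± 0.11 in Ras and 1.92 ± 0.11 in mp53/Ras against bleo/Neo, and mp53/Ras exceeded Ras by 0.75 ± 0.11 (adjusted p = 9.83e-07). In mp53 it rose against bleo/Neo, by 0.30 ± 0.11 (adjusted p = 0.0300), where 33.6% of all probe sets passed. The brighter probe set did not pass there with all arrays. Its difference of bleo/Neo from YAMC was 0.19 ± 0.11 (adjusted p = 0.200; 34.2% passed).

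**Figure D1:**
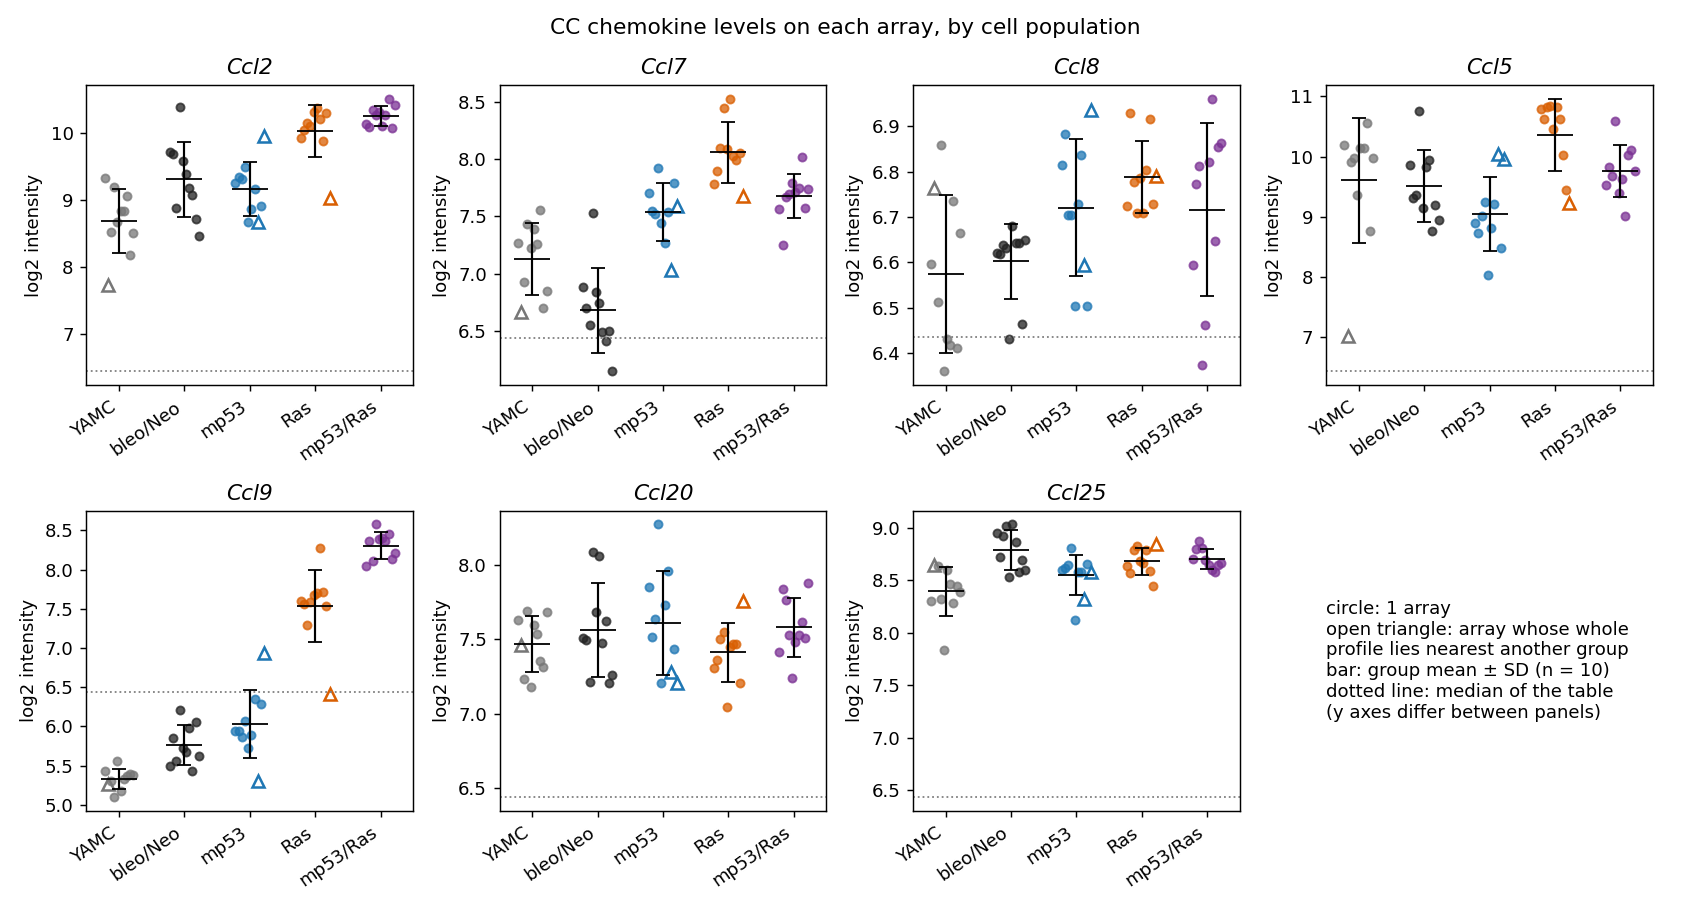
Level of each CC chemokine gene on each array (log2 intensity, y axes differ between panels) by cell population, 10 arrays each, with the group mean ± SD, the brighter probe set for Ccl9 and Ccl25, and open triangles for the 4 arrays whose whole profile lies nearest another population. Ccl9 in mp53/Ras lies between 8.05 and 8.58, above all YAMC, bleo/Neo and mp53 arrays, whereas the populations overlap for Ccl20.

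Ccl2 and Ccl7 attract monocytes through Ccr2, and their genes are neighbours on chromosome 11. Ccl2 was at 7.73, 8.75 and 9.34 (lowest, median and highest) in YAMC, 8.47, 9.28 and 10.40 in bleo/Neo, and 8.67, 9.21 and 9.96 in mp53. It was at 9.03, 10.13 and 10.38 in Ras and at 10.08, 10.27 and 10.52 in mp53/Ras. The mp53/Ras arrays lay above all YAMC and mp53 arrays, and the array labelled bleo/Neo 4 (10.40) reached into their range. The array labelled Ras 10 (9.03) was the only Ras array below 9.88, the next lowest.

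Ccl2 rose against bleo/Neo by 0.73 ± 0.18 in Ras (adjusted p = 0.00101) and by 0.95 ± 0.18 in mp53/Ras (1.93-fold, adjusted p = 1.61e-05). Against YAMC it rose by 1.35 ± 0.18 in Ras and 1.57 ± 0.18 in mp53/Ras (2.96-fold), and also by 0.62 ± 0.18 in bleo/Neo (adjusted p = 0.00547). Its rise in mp53 against YAMC (0.48 ± 0.18, adjusted p = 0.0488) ended when any 1 of 13 arrays was left out, with values from 0.37 without YAMC 2 (adjusted p = 0.115) to 0.50 (adjusted p = 0.0522). Between mp53/Ras and Ras the difference was 0.22 ± 0.18 (adjusted p = 0.423), and between mp53 and bleo/Neo −0.14 ± 0.18 (adjusted p = 0.580), so that these neighbours in the order were not separated beyond their spread.

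Ccl7 ranked differently. It was lowest in bleo/Neo (6.14, 6.62 and 7.53), then YAMC (6.66, 7.24 and 7.56), mp53 (7.03, 7.54 and 7.92) and mp53/Ras (7.25, 7.71 and 8.02), and highest in Ras (7.68, 8.04 and 8.53). All Ras arrays lay above all YAMC and all bleo/Neo arrays. The highest bleo/Neo value was again the array labelled bleo/Neo 4, whose 9 companions ended at 6.88.

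Against bleo/Neo, Ccl7 rose by 0.86 ± 0.12 in mp53 (adjusted p = 1.84e-07), by 1.38 ± 0.12 in Ras (2.60-fold, adjusted p = 2.37e-13) and by 1.00 ± 0.12 in mp53/Ras (adjusted p = 1.60e-09). Against YAMC the rises were 0.41 ± 0.12, 0.93 ± 0.12 and 0.55 ± 0.12 in the same order, and bleo/Neo was lower by −0.45 ± 0.12 (adjusted p = 0.00345), so that the control moved these values by 0.45. The neighbours mp53 and mp53/Ras differed by 0.14 ± 0.12 (adjusted p = 0.363). The level in cells with both oncogenes was below the sum of the separate differences: the non-additive term (mp53/Ras − mp53 − Ras + control) was −1.24 ± 0.18 with bleo/Neo (adjusted p = 2.58e-07) and −0.79 ± 0.18 with YAMC (adjusted p = 0.00125). Of all genes, 23.9% passed this test with bleo/Neo (12% below 0) and 12.4% with YAMC (7.02% below 0). No other member passed in this fit by its brighter probe set. Ccl9 was at 0.50 ± 0.20 with bleo/Neo (adjusted p = 0.0576) and passed when any 1 of 7 arrays was left out (up to 0.60 without mp53 10, adjusted p = 0.0112) and by its second probe set (0.44 ± 0.16, adjusted p = 0.0305; 27.4% of all probe sets passed). For Ccl7, mp53/Ras was also lower than Ras itself (−0.38 ± 0.12, adjusted p = 0.0215), a call that ended without Ras 6 (−0.33, adjusted p = 0.0537) or without mp53/Ras 2 (−0.33, adjusted p = 0.0518).

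Ccl8, also named as a monocyte chemoattractant protein, lies in the same stretch of chromosome 11 after Ccl11 and Ccl12. Its level stayed within 6.36 to 6.96 over all 50 arrays, just around and above the median of the table. The group mean was 6.58 in YAMC, 6.60 for bleo/Neo, 6.72 for mp53 and for mp53/Ras, and 6.79 for Ras, whose arrays all lay above those of bleo/Neo. It rose in Ras, by 0.19 ± 0.07 against bleo/Neo (adjusted p = 0.0199) and 0.21 ± 0.07 against YAMC (adjusted p = 0.00757). The differences of mp53/Ras were 0.11 ± 0.07 and 0.14 ± 0.07 (adjusted p = 0.139 and 0.0618), and both passed with each array centred on its median, at 0.15 (adjusted p = 0.0487) and 0.18 (adjusted p = 0.0197). The differences of mp53 were 0.12 ± 0.07 and 0.15 ± 0.07 (adjusted p = 0.162 and 0.105), and both passed with array weights, at 0.16 (adjusted p = 0.0174) and 0.19 (adjusted p = 0.00798). Compared directly, Ras was not separated from mp53 (0.07 ± 0.07, adjusted p = 0.465) or from mp53/Ras (mp53/Ras minus Ras −0.07 ± 0.07, adjusted p = 0.486).

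**Figure D2:**
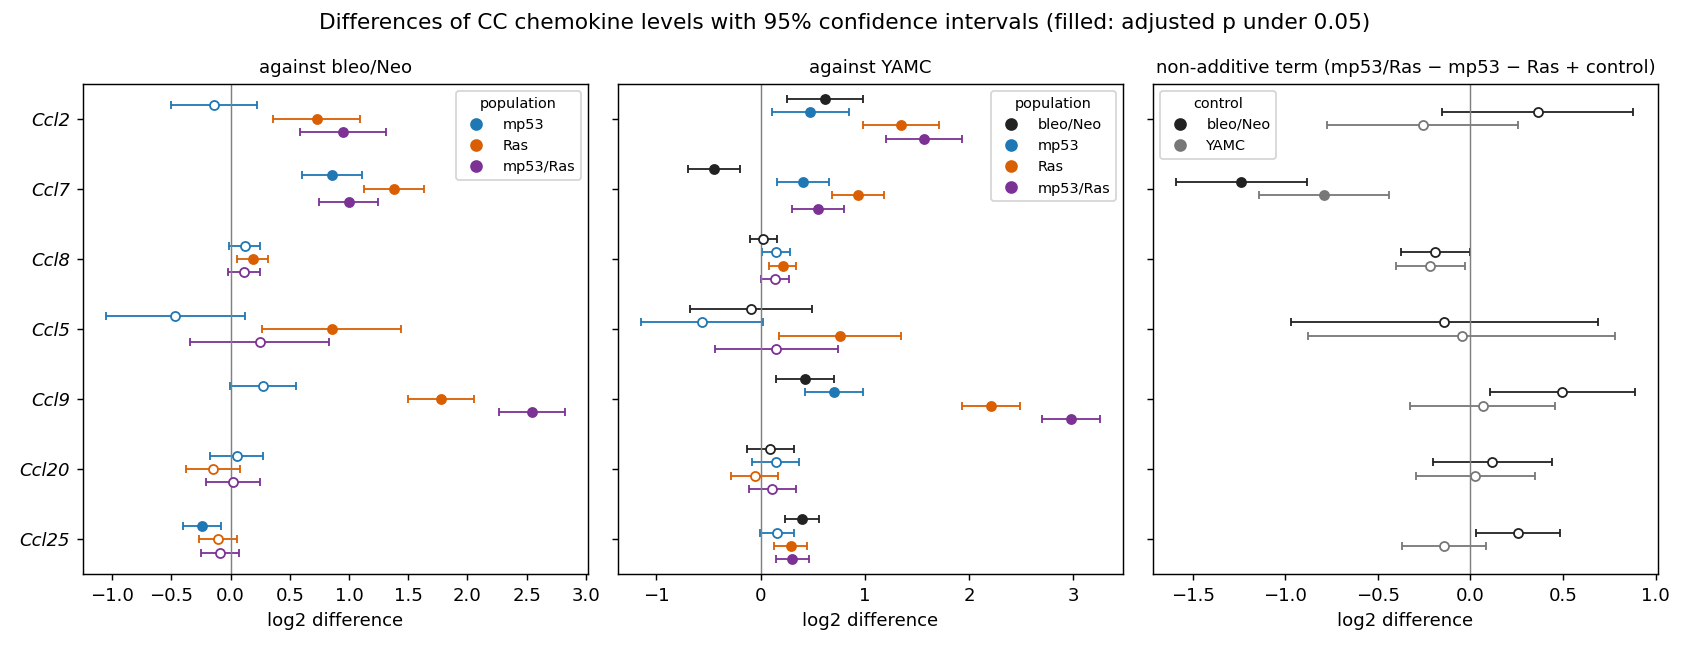
Log2 differences of the 7 genes with 95% confidence intervals from the limma fit, against bleo/Neo (left), against YAMC (middle) and as the non-additive term with either control (right), filled where the adjusted p was under 0.05. Ccl9 in mp53/Ras shows the widest differences (2.55 and 2.98), and Ccl7 is the only gene whose non-additive term is filled, at −1.24 and −0.79.

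Ccl5 attracts T cells and monocytes, and its gene is next to Ccl9 on chromosome 11. It varied most between arrays of 1 population, with an SD of 1.03 in YAMC and from 0.43 to 0.61 in the others. Its values were 7.02, 9.98 and 10.55 in YAMC, 8.76, 9.33 and 10.76 in bleo/Neo, and 8.03, 8.96 and 10.03 in mp53. In Ras they were 9.22, 10.62 and 10.84, and in mp53/Ras 9.01, 9.72 and 10.59. All 5 populations overlapped, and the 7.02 belongs to the array labelled YAMC 2, the next lowest YAMC array being at 8.76.

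Ccl5 rose in Ras, by 0.85 ± 0.29 against bleo/Neo (1.81-fold, adjusted p = 0.0155), by 0.76 ± 0.29 against YAMC (adjusted p = 0.0310) and by 1.32 ± 0.29 against mp53 (adjusted p = 3.51e-04). The rise against YAMC ended when any 1 of 6 arrays was left out, to 0.47 without YAMC 2 (adjusted p = 0.113). mp53/Ras exceeded mp53 by 0.71 ± 0.29 (adjusted p = 0.0397), a call that ended when any 1 of 10 arrays was left out (0.60 at the lowest, adjusted p = 0.0910). In mp53/Ras the differences were 0.25 ± 0.29 from bleo/Neo and 0.15 ± 0.29 from YAMC (adjusted p = 0.494 and 0.670). In mp53 they were −0.47 ± 0.29 and −0.56 ± 0.29 (adjusted p = 0.220 and 0.165). Both passed as falls without the 4 arrays that lie nearest another population, at −0.71 (adjusted p = 0.00876) and −1.09 (adjusted p = 1.65e-04), and mp53/Ras was then lower than Ras by −0.74 (adjusted p = 0.00841), where with all arrays it was at −0.61 (adjusted p = 0.134). Without them all Ras arrays lay above all mp53 arrays, as was so for 14.3% of all genes in either direction. Of 6 leukocyte markers tested, 2 rose and none fell in Ras against bleo/Neo, where 41.1% of all genes passed. These were Cd14, which encodes a co-receptor for bacterial lipopolysaccharide (0.99 ± 0.21), and Csf1r, the receptor of a macrophage growth factor (0.25 ± 0.09). Against YAMC, 2 rose and 1 fell in Ras. In mp53, 1 rose and 4 fell against YAMC, where 22.9% of all genes passed. Against bleo/Neo, 1 rose and 2 fell in mp53, where 35.4% passed. Compared directly, 3 were higher and 1 lower in Ras than in mp53, where 32.9% passed. The part of these markers in the Ccl5 result was not tested.

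Ccl20 and Ccl25, the members best known from gut epithelium, had group means at most 0.20 and 0.40 apart by their brighter probe sets. Ccl20 lay above the median of the table on all 50 arrays, with a lowest group mean of 7.41 (Ras), then 7.47 (YAMC), 7.56 (bleo/Neo), 7.58 (mp53/Ras) and 7.61 (mp53), and its populations overlapped throughout. None of its 10 pairwise differences passed, the widest being −0.20 ± 0.11 in Ras against mp53 (adjusted p = 0.177), and the 95% confidence interval of mp53/Ras against bleo/Neo ran from −0.21 to 0.25. Without mp53 10 and Ras 10 the difference of Ras from mp53 passed as a fall of −0.28 (adjusted p = 0.0474).

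Ccl25 was lowest in YAMC, at 7.84, 8.42 and 8.65, and highest in bleo/Neo, at 8.53, 8.80 and 9.03. The oncogene populations lay between them, with means of 8.55 (mp53), 8.68 (Ras) and 8.70 (mp53/Ras). It rose by 0.40 ± 0.08 in bleo/Neo against YAMC (adjusted p = 7.75e-05), by 0.29 ± 0.08 in Ras and by 0.31 ± 0.08 in mp53/Ras. The mp53 population was lower than bleo/Neo (−0.24 ± 0.08, adjusted p = 0.0152), and neither Ras (−0.11 ± 0.08) nor mp53/Ras (−0.09 ± 0.08) passed against bleo/Neo. With array weights these passed as falls, at −0.17 in Ras (adjusted p = 0.0205) and −0.14 in mp53/Ras (adjusted p = 0.0324).

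The second Ccl25 probe set, 1458277_at, gave the same order at its ends but wider differences, 0.75 ± 0.10 in bleo/Neo against YAMC (adjusted p = 9.28e-08), where 34.2% of all probe sets passed. It also fell in mp53/Ras against bleo/Neo (−0.30 ± 0.10, adjusted p = 0.0173) and rose in mp53 against YAMC (0.37 ± 0.10, adjusted p = 0.00682; 26.3% of all probe sets passed), where the brighter probe set did not pass. Its non-additive term was −0.42 ± 0.15 with YAMC (adjusted p = 0.0377; 20.1% passed). The probe sets correlated at r = 0.72 over 50 arrays.

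**Figure D3:**
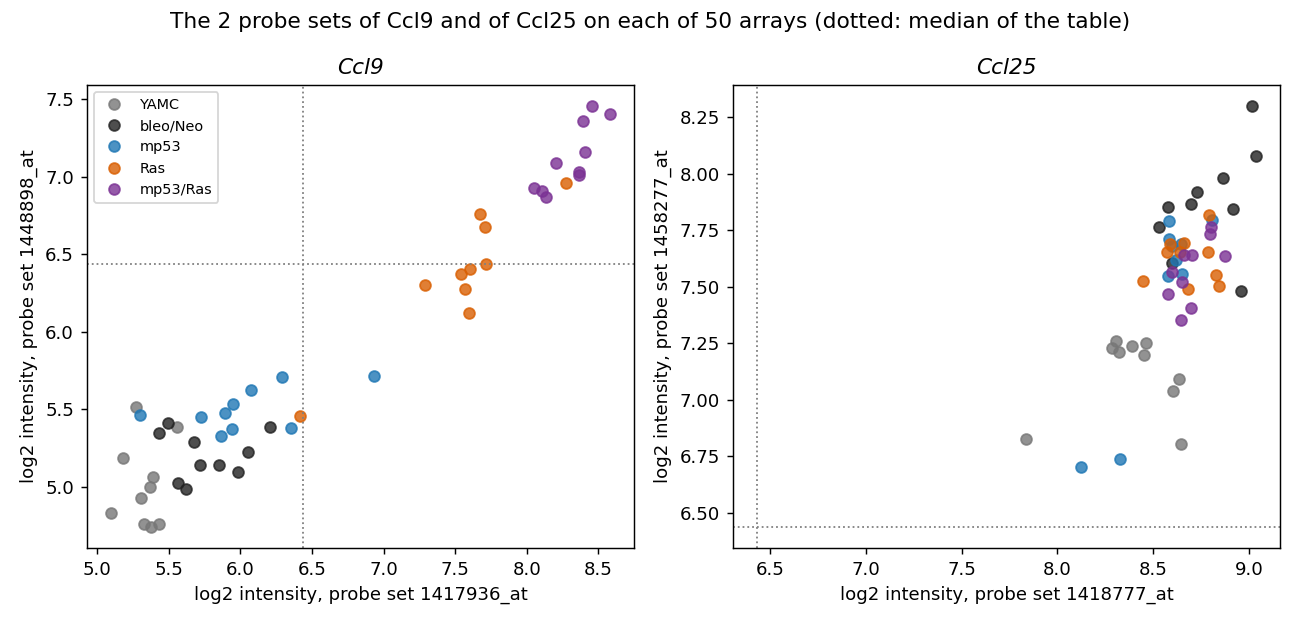
The brighter (x axis) and dimmer (y axis) probe set of Ccl9 (left) and Ccl25 (right) on each of 50 arrays, both in log2 intensity, coloured by population, with the median of the table dotted. The Ccl9 probe sets rise together from YAMC to mp53/Ras (r = 0.96), while for Ccl25 the lowest arrays on the y axis are mp53 5 (6.70) and mp53 8 (6.74), followed by YAMC arrays (r = 0.72).

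Arrays of the same population also varied together for some members. Taking each array's deviation from its population mean over 50 arrays, which share their normalisation, Ccl2 and Ccl7 correlated at r = 0.79, and at r = 0.80 over the 46 arrays without those nearest another population. Ccl2 with Ccl5 gave r = 0.64 (0.56 over 46 arrays), and Ccl5 with Ccl7 r = 0.46 (0.52). Ccl2 with Ccl9 gave r = 0.49 but only 0.18 over the 46 arrays. Ccl20 with Ccl25 gave r = 0.46 (0.45). Without the 4 arrays Ccl2 with Ccl20 stood at r = 0.55 (0.28 over 50 arrays), Ccl5 with Ccl20 at 0.53 (0.17) and Ccl5 with Ccl25 at 0.56 (0.14). Over the 50 arrays, Ccl8 gave r from −0.03 to 0.15 with Ccl2, Ccl7, Ccl5 and Ccl9. The array labelled bleo/Neo 4 was the highest of its population for 5 of the 7 genes, and Ras 10 and mp53 5 the lowest of theirs for 4 each. Array number 5 was the lowest for Ccl20 in YAMC, mp53, Ras and mp53/Ras, and for Ccl25 in YAMC, bleo/Neo and mp53. Over the genes tested, same-numbered arrays of different populations deviated together on average (mean r = 0.20). The part of this in the correlations above was not tested.

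**Figure D4:**
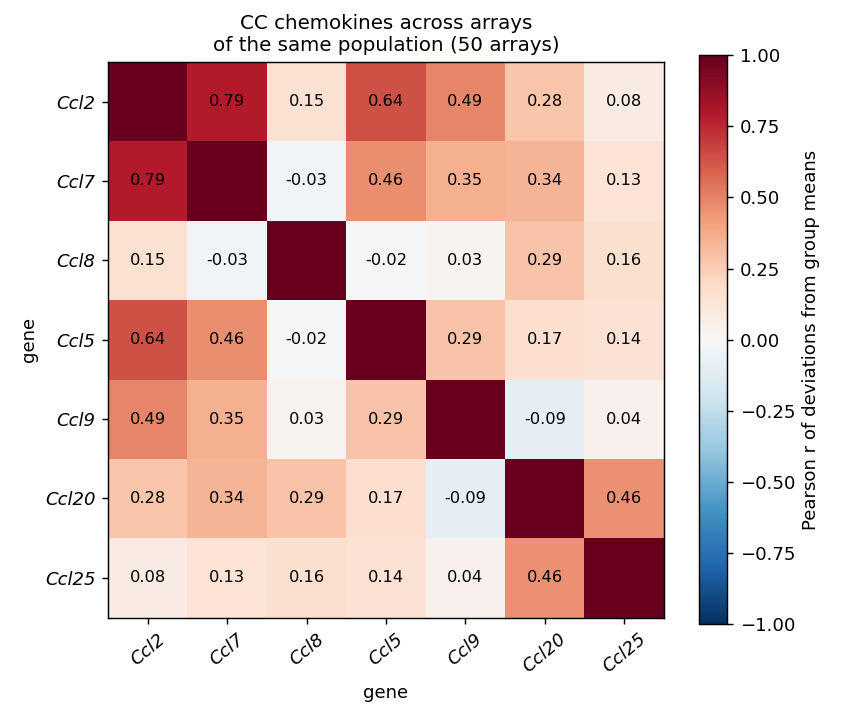
Pearson r between the 7 genes of their deviations from population means over 50 arrays (colour scale from −1 to 1, both axes list the genes). The Ccl2 and Ccl7 cell is the deepest off the diagonal (r = 0.79), and Ccl8 is pale against Ccl2, Ccl7, Ccl5 and Ccl9.

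The genes most like each member over the 50 arrays were found among the 12883 tested. For Ccl9 they were 2010204K13Rik (r = 0.97), Ank, a pyrophosphate transporter gene (0.97), and Gchfr, a regulator of tetrahydrobiopterin synthesis (0.96). Taken within populations and without the 4 arrays, these fell to 0.46, 0.31 and 0.28. For Ccl5 they were Zbp1, a nucleic acid sensor gene (r = 0.92), Rtp4 (0.88) and Cmpk2 (0.83), and within populations without the 4 arrays they were at 0.77, 0.69 and 0.56. For Ccl2 they were Tm4sf1, Cep20 and Pimreg (0.90, 0.89 and 0.88), for Ccl7 Tslp, which encodes an epithelial cytokine, Gm10575 and S100a4 (0.87, 0.87 and 0.84), and for Ccl25 Sdhaf3, Naa38 and Trnau1ap (0.83, 0.82 and 0.80). Within populations without the 4 arrays, the genes named for Ccl2 were at 0.48, 0.67 and 0.53, those for Ccl7 at 0.43, 0.42 and 0.58, and those for Ccl25 at 0.69, 0.74 and 0.82. The highest for Ccl8 and Ccl20 were Kbtbd13 (0.71) and Gm41724 (0.65), at 0.66 and 0.56 within populations without the 4 arrays.

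Of 14 other CC chemokines listed, 11 were on the array under a single symbol and 4 were bright enough to be tested. In Ras, 1 of these 4 rose and none fell against bleo/Neo, where 41.1% of all genes passed. Against YAMC, 1 rose and 1 fell in Ras, where 42.7% of all genes passed. Ccl28, a mucosal epithelial chemokine that binds Ccr10 and Ccr3, rose by 0.86 ± 0.07 in mp53/Ras and 0.68 ± 0.07 in Ras against bleo/Neo, and by 0.91 ± 0.07 and 0.73 ± 0.07 against YAMC. Ccl24 fell in mp53/Ras, by −0.25 ± 0.09 and −0.54 ± 0.09, and Ccl17 rose against YAMC (0.18 ± 0.05, adjusted p = 0.00173), with 0.06 ± 0.05 against bleo/Neo. Ccl4 passed in neither of these comparisons of mp53/Ras, and Ccl11 and Ccl12, the genes between Ccl7 and Ccl8, had group means of at most 4.67.

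Of 14 receptors of the list on the array, 7 were tested, of which 5 rose and 1 fell in mp53/Ras against bleo/Neo, and 5 rose and none fell against YAMC. Of all genes, 54.6% and 57.8% passed there, 26.7% and 29.1% as rises. Ackr3, an atypical receptor that scavenges the CXC chemokine Cxcl12, stood at 4.01 to 4.22 in bleo/Neo, 3.85 to 4.58 in YAMC and 4.10 to 7.22 in mp53, at 4.84 to 7.84 in Ras and at 6.73 to 8.25 in mp53/Ras. It was tested because of the populations in which it is high, and its fitted differences in mp53/Ras (3.52 ± 0.26 and 3.29 ± 0.26) start from levels that may be background. Ccr9, the receptor of Ccl25, rose by 0.38 ± 0.11 and 0.37 ± 0.11, and Ackr2, which takes up inflammatory CC chemokines, by 0.25 ± 0.06 and 0.32 ± 0.06. Ccr6, the receptor of Ccl20, rose by 0.30 ± 0.07 and 0.31 ± 0.07. Ackr1, another atypical receptor, fell against bleo/Neo (−0.40 ± 0.08), with 0.05 ± 0.08 against YAMC. Ccr2 rose against bleo/Neo (0.27 ± 0.10) and not against YAMC (−0.06 ± 0.10), and Ccr1 lay between 4.31 and 4.55 in group mean, below the filter.

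Of 13 tested NF-kappaB subunits, kinases and targets, 3 rose and 3 fell in mp53/Ras against bleo/Neo, and 4 rose and 4 fell against YAMC, a share near the 54.6% and 57.8% of all genes that passed. The kinase gene Ikbke fell by −1.49 ± 0.13 and −1.19 ± 0.13. Nfkbiz, a nuclear regulator of NF-kappaB, rose by 1.42 ± 0.19 and 0.50 ± 0.19. Its bleo/Neo arrays (4.57 to 6.01) all lay below the median of the table, levels that may be background. Tnfaip2 rose by 0.76 ± 0.12 and 0.47 ± 0.12, and Nfkbie rose against YAMC (0.77 ± 0.13, with 0.26 ± 0.13 against bleo/Neo). Of 7 interferon factors tested, 2 rose and 1 fell against bleo/Neo and 1 of each against YAMC, out of the same background. Stat2 was at 0.41 ± 0.13 and −0.10 ± 0.13, Irf1 at 0.27 ± 0.08 and 0.11 ± 0.08, Irf3 at −0.18 ± 0.06 and 0.15 ± 0.06, and Irf7 at −0.29 ± 0.15 and −0.36 ± 0.15. The first of each pair passed for Stat2 and Irf1, both for Irf3, and the second for Irf7. Of 5 tested proteases that can cut chemokines, 3 rose against bleo/Neo and 3 rose and 2 fell against YAMC, where 26.7% and 29.1% of all genes rose. Mmp13 had means of 3.68 in YAMC, 4.32 in bleo/Neo and 4.38 in mp53, levels that may be background. It was tested because it is higher in Ras (7.44) and mp53/Ras (6.93). Its fitted differences in mp53/Ras were 2.61 ± 0.37 against bleo/Neo and 3.26 ± 0.37 against YAMC. Mmp3 rose by 0.69 ± 0.16 and 0.83 ± 0.16, whereas Mmp2, known to truncate Ccl7, rose by 2.33 ± 0.10 against bleo/Neo and fell by 0.86 ± 0.10 against YAMC. All these adjusted p-values are from limma over 12883 genes.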

How the data were processed

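RMA intensities, 1 per probe set and array, were deposited by the authors on a linear scale for 50 Affymetrix arrays of 5 µg of labelled RNA each, per the labels and the submitters' processing notes; the RMA version is not given in the sources used here, and the linear scale was read from the values. Array medians of 86.4 to 86.7 leave little difference in overall scale between arrays. Of 45101 probe sets, 64 were blank; 34945 had 1 gene symbol, 932 several and 9160 none, and 34741 of the first matched RefSeq by gene number. Intensities were taken to log2 with no offset (lowest value 3.04). For each symbol the brightest probe set over all arrays was used, and genes above the table median (6.44) on at least 10 arrays were tested with limma 3.58.1 (R 4.3.3), with 1 coefficient per group, an intensity trend and Benjamini-Hochberg adjustment per comparison. A second fit took all 45037 probe sets. The scripts were tested on simulated data. The members and lists were chosen with earlier results of these data known. Named genes are the members, from each list the 3 called genes with the widest difference in mp53/Ras against each control, and the 3 genes most correlated with each member; the receptors Ccr1, Ccr2 and Ccr6, the chemokines Ccl4, Ccl11 and Ccl12, and markers were named after their values were seen. Arrays give no read depth, so their number limits the precision. Alternatives were the probe set rule, filters, an offset of 50, the trend, array weights, a replicate block, arrays left out, centring and fits of the compared groups only.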

Additional observations from a re-analysis of the deposited data

Results flagged for a closer look

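Some values stood apart from the other arrays of their population, by the gap to the nearest array relative to the population's range. In Ras, the array labelled Ras 10 was low for Ccl2 (9.03, the others from 9.88 to 10.38) and for Ccl9 (6.42, the others from 7.29 to 8.27). In YAMC, YAMC 2 was low for Ccl5 (7.02, the others from 8.76 to 10.55) and YAMC 5 for Ccl25 (7.84, the others from 8.29 to 8.65). In bleo/Neo, the array labelled bleo/Neo 4 was high for Ccl7 (7.53, the others from 6.14 to 6.88). These are 5 of 45 groups examined, and chance gives about 1 in 20 for independent groups. The groups here share their arrays and are not independent, and Ras 10 is flagged for both Ccl2 and Ccl9, so this rate is only a rough guide.

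For Ccl7 the difference between mp53/Ras and mp53 was not that between Ras and the control. The non-additive term was −1.24 with bleo/Neo and −0.79 with YAMC as the control, both from an interaction test in limma. Ccl7 was higher in Ras than in bleo/Neo by 1.38, and mp53/Ras differed from mp53 by 0.14 ± 0.12 (adjusted p = 0.363). Each population exists once, so whether the oncogenes themselves gave this pattern was not tested.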

How the results depend on the processing

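Over all genes, array weights raised the called genes from 2952 to 5971 (mp53 against YAMC), 2779 to 4973 (mp53/Ras against Ras), 4243 to 6779 (Ras against mp53), and 3073 to 5137 and 1602 to 4151 for the non-additive term with bleo/Neo and YAMC. No filter, with more genes tested, gave 4711 in mp53 against YAMC, 4576 in mp53/Ras against Ras, and 5038 and 3353 for the non-additive terms, and changed no call of the 7 genes. Counts of the 7 genes called kept within 1.5 times the reported count under most alternatives, and no called difference changed sign under any alternative run. Array weights raised the count from 2 to 4 in mp53 against bleo/Neo, from 3 to 5 in mp53/Ras against bleo/Neo, from 3 to 7 in mp53 against YAMC, and from 1 to 4 and 1 to 2 for the non-additive term with bleo/Neo and with YAMC. In Ras against bleo/Neo array weights added Ccl20 and Ccl25, both as falls. Without the 4 arrays nearest another population the count was 4 in mp53 against bleo/Neo, and 2 for the non-additive term with bleo/Neo, where it was also 2 without mp53 10 and Ras 10, with the offset of 50 or with the replicate block, and 3 with the median of each gene's probe sets. The stricter filter on dim genes, which leaves out Ccl9, gave 1 in mp53 against YAMC and 1 in mp53/Ras against Ras. Leaving out each array of the compared groups in turn, an alternative added after seeing the data, gave counts of 4 to 4 in bleo/Neo against YAMC, 2 to 4 in mp53, 5 to 6 in Ras and 4 to 5 in mp53/Ras against YAMC, and 2 to 3, 5 to 5 and 3 to 4 in the same populations against bleo/Neo. It gave 2 to 3 in mp53/Ras against mp53, 4 to 4 in Ras against mp53, 1 to 2 in mp53/Ras against Ras, and 1 to 2 and 1 to 1 for the non-additive term with bleo/Neo and YAMC. The cause was not tested, except that the stricter filter removes Ccl9 (Ccl2 was then at adjusted p = 0.0502 in mp53 against YAMC). Array numbers are shared between populations, and same-numbered arrays deviated together more than others on average (mean r = 0.20 over 100 pairs, from −0.52 to 0.75, against −0.02 over 900 pairs of different number; 23 of 50 arrays correlated best with their own number). Same-numbered arrays may thus share a source of variation, which the labels do not name and which was not tested. The main fit leaves the numbers out, and the replicate block takes them in. The replicate block changed 2 of 84 member calls, adding Ccl8 in mp53/Ras against YAMC (0.14, adjusted p = 0.0405) and Ccl25 for the non-additive term with bleo/Neo (0.26, adjusted p = 0.0323). Signal over background limits Ccl9 in YAMC, bleo/Neo and mp53, and Ccl8 throughout.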
